A study of Mus musculus with 18 samples.

Results

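The comparison described here asked, gene by gene, whether kainic acid (KA) changed the ribosome-bound RNA of hippocampal astrocytes more or less than it changed the RNA of the whole hippocampus. It used 12 of the 18 libraries of the series, the IP and input libraries of the KA and PBS groups, with 3 of each. The quantity tested was (KA IP minus KA input) minus (PBS IP minus PBS input) on the log2 scale, called the log2 difference below. Genes were kept when their FPKM (a level scaled to gene length and library depth, from fragments per kilobase) was above 1 in all 6 IP libraries, which left 9847 of the 55291 genes in the tables. A gene is called higher or lower when its log2 difference had an adjusted p under 0.05 in edgeR's quasi-likelihood test and a size of at least 1. A higher gene gained in IP relative to input after KA, and a lower gene lost.

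Translating ribosome affinity purification pulls down ribosomes that carry a tagged protein, so that the mRNA on them can be set against the total RNA of the same homogenate. Astrocytes clear glutamate and potassium around synapses, and after an injury they become reactive, with more intermediate filament protein and secreted factors. KA is an agonist of glutamate receptors that provokes seizures, and after injection into the hippocampus pyramidal neurons die while astrocytes and microglia react.

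All 12 libraries came from wild-type C57BL/6J male mice that received AAV-DJ-GfaABC1D-EGFP-Rpl10a in the right CA3 at 6 weeks of age. GfaABC1D is a short promoter of the astrocyte gene Gfap, and it drives a GFP-tagged ribosomal protein that an anti-GFP antibody pulls down. In the KA group 50 nL of 20 mM KA entered the right dentate gyrus 2 weeks after the virus, and RNA was taken 14 days later. In the PBS group PBS was injected after the virus, and the day of collection is not given in the sources used here. Each library pooled several hippocampi, and within a group an IP library and an input library that carry 1 number came from a single homogenate. KA replicates 1 and 2 were sequenced in run 1, KA replicate 3 in run 2 and the PBS group in run 3, so group and run cannot be told apart except where the run acts equally on IP and input. The AAV-only group, which was not injected again, is used below only for values set beside these. Its RNA was taken 2 weeks after the virus, so these mice were younger at collection than the KA mice. AAV-only replicates 1 and 2 were sequenced in run 1 and replicate 3 in run 2, as for KA.

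The 12 libraries held between 9534606 and 16032180 counts in genes. The 25 astrocyte markers summed to 10612 to 17746 FPKM in PBS IP and 1316 to 1570 FPKM in PBS input, against 5645 to 6261 FPKM in KA IP and 1813 to 1952 FPKM in KA input. So the summed markers stood higher in IP than in input in both groups, with a smaller gap after KA. Aldoc alone held 4009 to 7338 FPKM of the sums in PBS IP and 1267 to 1745 FPKM in KA IP. Of the 25 markers 11 were called lower in IP after KA and 0 higher. The sums cannot tell the share of astrocyte RNA in the IP from a change of the markers within astrocytes. In bulk samples fewer cells of a type and less RNA per cell cannot be told apart.

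Of the 9847 genes tested, 1384 (14.1%) were called, 476 higher (4.83%) and 908 lower (9.22%), in edgeR's quasi-likelihood test with Benjamini-Hochberg adjustment. The shares of 4.83% and 9.22% are the background for each list count below. The median log2 difference over all genes tested was -0.09, and the values ran from -4.28 for CT010467.2 to 3.76 for Penk. For 1366 of the 1384 called genes (98.7%) the 3 KA and 3 PBS ratios of IP to input did not overlap, against 4598 of all 9847 (46.7%). With 3 homogenates on each side an exact permutation test of a single gene cannot go below p = 0.1, so calls rest on the fit across all genes.

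The called genes fell into a few patterns when each fraction was looked at alone. Between KA and PBS, 774 genes rose in IP (7.86%) and 954 fell in IP (9.69%), while 460 rose in input (4.67%) and 64 fell in input (0.65%). Of the 476 higher genes, 297 rose in IP with no call in input, 34 rose in both, 7 fell in input alone and 138 were called in neither fraction. Of the 908 lower genes, 534 fell in IP with no call in input, 103 rose in input with no call in IP, 21 rose in both but more in input, and 245 were called in neither. Most calls in both directions thus had their larger change in the IP. A further 177 genes rose in both fractions without a call on the difference.

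**Figure D1:**
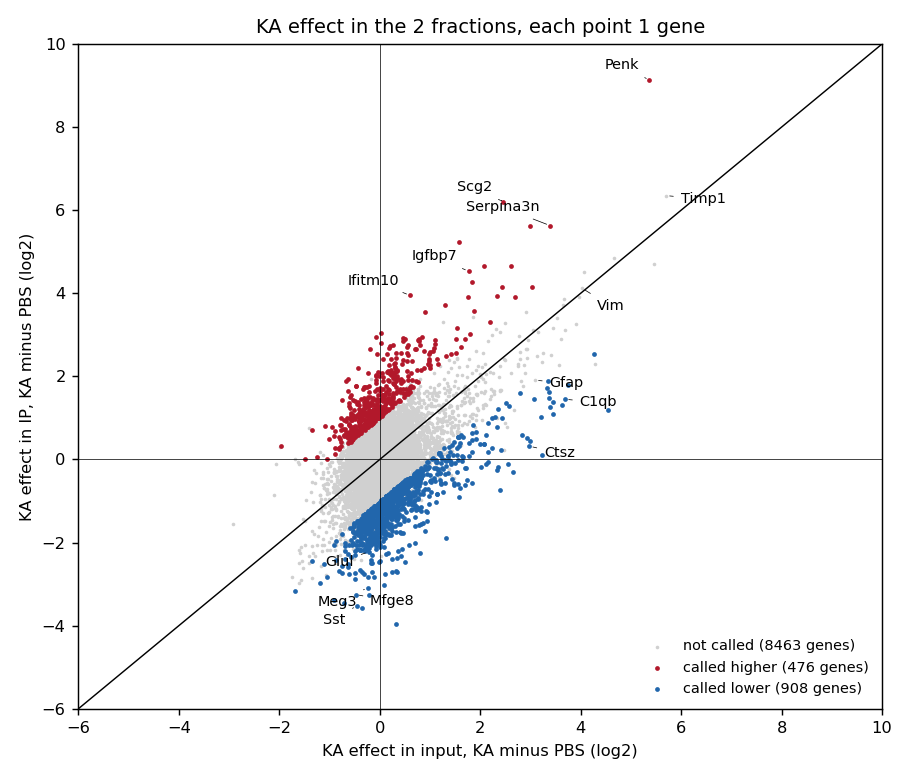
KA effect in input (x axis, log2 of KA over PBS) against KA effect in IP (y axis, same scale) for each of the 9847 genes. The diagonal marks equal effects in both fractions. The 476 higher genes lie above it and the 908 lower genes below it, with Penk at 5.37 in input and 9.13 in IP, and C1qb at 3.69 in input and 1.45 in IP.

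The direction of the log2 difference followed how enriched a gene was in the IP of AAV-only mice, whose libraries entered neither side of the comparison. The 9847 genes were split by their mean log2 ratio of IP to input in the 3 AAV-only homogenates, a split chosen after the values were seen. Among the 335 genes most depleted from the IP (ratio of -2 or less), 47.2% were higher and 3.58% lower, with a median log2 difference of 0.99. At the other end, 55.6% of the 430 genes with a ratio above 2 were lower and 0.233% higher, with a median of -1.15. In between the median fell step by step, through -0.1 in the 4585 genes with ratios from -0.5 to 0.5. Across the 9847 genes the AAV-only ratio and the log2 difference had a Pearson r of -0.59 and a Spearman rho of -0.6, given as a description, since genes of the same libraries are not independent.

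The ratios themselves spanned a narrower range after KA. The SD across genes of the log2 ratio of IP to input was 0.75, 0.71 and 0.71 in the 3 KA homogenates, against 0.98, 1.1 and 1.01 in the PBS homogenates and 1.07 to 1.1 in the AAV-only ones. The KA homogenates lay below all PBS and AAV-only ones in this measure, while PBS and AAV-only overlapped. The summed markers of neurons and oligodendrocytes in the IP, given below, were also higher after KA, and their part in this was not tested.

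**Figure D2:**
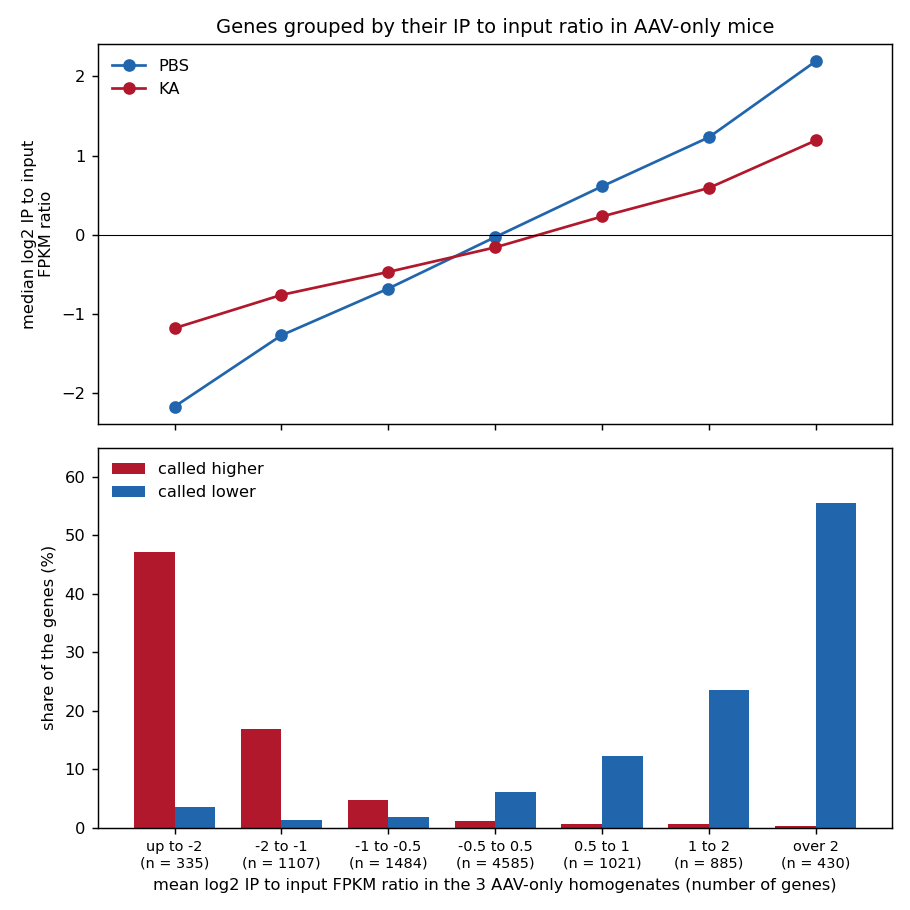
Genes in 7 classes of their mean log2 ratio of IP to input FPKM in the AAV-only homogenates (x axis, with the number of genes). The upper panel gives the median log2 ratio in PBS and KA: in the highest class it is 2.19 in PBS and 1.19 in KA, and in the lowest class -2.17 in PBS and -1.18 in KA. The lower panel gives the share of each class called higher or lower, in percent.

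The 2 largest positive values, of Penk and Scg2, belonged to the list of granins and neuropeptides. Granins are proteins of the dense-core granules in which neurons and endocrine cells store peptide hormones, and of the 24 listed granin, neuropeptide and secreted-factor genes 17 were tested. Of those, 10 were higher and 3 lower, with a median log2 difference of 1.33 against -0.09 over all genes. The median KA effect of the 17 was 2.42 in IP and 0.82 in input. Without KA replicate 1 or 2 or PBS replicate 1 the lower members numbered 1 in place of 3, and without PBS replicate 2 they numbered 2.

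Penk encodes proenkephalin, the precursor of the enkephalin opioid peptides (chr4:4133531-4138819, minus strand, GRCm38, with A830012C17Rik on the opposite strand). In KA IP it stood at 2380, 1905 and 6297 FPKM in replicates 1 to 3, and in the matching KA inputs at 1042, 913 and 1405 FPKM. In PBS IP it stood at 8.75, 6.16 and 3.96 FPKM, and in PBS input at 23.3, 25.7 and 31.2 FPKM. Every KA library lay above every PBS library, and the order of the fractions turned: IP was above input in all 3 KA homogenates and below it in all 3 PBS homogenates. The log2 difference was 3.76 (SE 0.648, adjusted p = 0.0014, edgeR), made of a KA effect of 9.13 in IP and 5.37 in input.

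Scg2, which encodes secretogranin II (chr1:79434669-79440120, minus strand), turned in the same way. Its KA IP libraries held 1030, 944 and 1538 FPKM over inputs of 562, 500 and 474 FPKM. In PBS the IP held 19.1, 13.5 and 15.4 FPKM, under inputs of 80.8, 93.4 and 97 FPKM. The log2 ratio of IP to input was 0.87 to 1.7 in KA and -2.75 to -2.05 in PBS, so the groups lay far apart. The log2 difference was 3.74 (SE 0.352, adjusted p = 3.47e-05, edgeR).

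For Chgb and Cck the IP rose with almost no change in input. Chgb, which encodes chromogranin B, held 131, 109 and 112 FPKM in KA IP and 22.1, 13.5 and 25.6 FPKM in PBS IP. Its inputs overlapped between the groups, at 139 to 174 FPKM in KA and 149 to 177 FPKM in PBS, and the log2 difference was 2.59 (SE 0.239). Cck, the precursor of cholecystokinin, went from 44.3 to 81.8 FPKM in PBS IP to 288 to 1054 FPKM in KA IP, with a log2 difference of 3.03 (SE 0.544). Bdnf, a neurotrophin, reached 2.57 (SE 0.274) and Vgf, a secreted peptide precursor, 2.42 (SE 0.288), and both also rose in input, by 2.08 and 1.3.

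Somatostatin, the peptide of a class of inhibitory interneurons, moved the other way. Sst (chr16:23889573-23890958, minus strand) held 16.8, 17 and 13.8 FPKM in KA IP against 268, 147 and 117 FPKM in PBS IP. Its inputs were 824, 986 and 857 FPKM in KA and 1167, 1222 and 1178 FPKM in PBS. So the fall was far steeper in the IP than in the whole tissue: the KA effect was -3.52 in IP and -0.46 in input (adjusted p = 0.242 in edgeR for the latter), and the log2 difference was -3.06 (SE 0.379, adjusted p = 0.000173). Npy, another interneuron peptide, had IP values of 218, 568 and 3010 FPKM in KA and 220, 101 and 72.2 FPKM in PBS, so KA replicate 1 lay within the PBS range, and it was not called at 2.07 (SE 1.03, adjusted p = 0.156 in edgeR). With the homogenate as a replicate block Npy was called, at 1.52 (adjusted p = 0.0265).

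The promoters of these genes are shown because Scg2, Chgb and Sst share the full cyclic AMP response element, the site bound by the transcription factor CREB, while their log2 differences point in opposite directions. The 100 bases before each RefSeq start (GRCm38.p6) follow, 5′ to 3′ on the strand of the gene, with the element TGACGTCA in capitals.
Scg2, chr1:79440027-79440126, minus strand: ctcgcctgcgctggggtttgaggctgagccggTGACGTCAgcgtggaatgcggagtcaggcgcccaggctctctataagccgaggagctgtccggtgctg
Chgb, chr2:132781542-132781641, plus strand: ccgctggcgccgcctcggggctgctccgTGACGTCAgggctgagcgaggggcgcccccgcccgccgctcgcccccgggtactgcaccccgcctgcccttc
Sst, chr16:23890845-23890944, minus strand: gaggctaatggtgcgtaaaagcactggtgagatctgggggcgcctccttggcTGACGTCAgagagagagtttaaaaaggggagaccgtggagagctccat
The element begins 68 bases before the RefSeq start in Scg2, 72 in Chgb and 48 in Sst. GENCODE, the source of the gene locations given here, starts these genes further upstream. The stretches of Chgb and Sst lie within the GENCODE genes, and that of Scg2 mostly so, and the distances hold for the RefSeq start only. Of the 17 tested granin and neuropeptide genes 12 had a promoter window in the RefSeq table (250 bases before to 50 after the start), and 3 of these held the element. Penk had no entry.

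Over all genes tested, 7608 had such a window and 3.75% of them held TGACGTCA, which reads the same on both strands. The share was 5.41% among 370 higher genes and 3.29% among 700 lower genes, and 1.79% of all 32851 windows held it. The AP-1 letters TGANTCA were in 7.3% of the higher, 6.14% of the lower and 5.76% of the tested genes, and in 7.81% of all windows. The STAT letters TTCCNGGAA, searched on both strands, were in 0.541% of the higher and 1.43% of the lower genes, beside 1.39% of those tested and 1.15% of all windows. These are descriptions of letters in a window, with no test.

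Many neuronal and synaptic genes were higher, and none was called lower in either list. Of 16 pan-neuronal markers, all of them tested, 9 were higher and the other 7 were not called, with a median log2 difference of 1.18. Of 25 tested synaptic vesicle genes 12 were higher and 13 not called, with a median of 0.94. Over all genes 4.83% were higher. The summed neuron markers stood at 1723 to 1882 FPKM in KA IP and 351 to 517 FPKM in PBS IP, while the inputs held 3151 to 4258 FPKM in KA and 3385 to 3541 FPKM in PBS. The part of RNA from neurons in these values was not tested.

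Nrgn, which encodes the postsynaptic calmodulin-binding protein neurogranin, illustrates the range. Its KA IP held 1154, 1510 and 1953 FPKM and its PBS IP 328, 180 and 225 FPKM, with inputs of 2835 to 4186 FPKM in KA and 3624 to 4348 FPKM in PBS. Even after KA the transcript remained below its input in all 3 homogenates, at log2 ratios of -1.68 to -0.54, against -4.43 to -3.73 in PBS. The log2 difference was 2.87 (SE 0.437, adjusted p = 0.000659, edgeR). Calm2, a calmodulin gene, reached 2.79 (SE 0.434), Rab3a, the GTPase of synaptic vesicles, 2.61 (SE 0.327), Stmn3, a neuronal stathmin, 2.48 (SE 0.315), and Syp, the vesicle protein synaptophysin, 1.7 (SE 0.244). Not every neuronal gene moved: Map2 was at -0.09, Celf4 at 0.21 and Nefh at -0.87, none of them called.

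Markers of the principal cell types split. In dentate granule cells 6 of 12 markers were tested and 3 were higher: C1ql2 at 2.26, Prox1, the transcription factor of granule cell identity, at 1.14, and Stxbp6 at 1.09. That count was 0 without KA replicate 2, 1 without PBS replicate 3 and 2 without PBS replicate 2. The C1ql2 ratios of IP to input overlapped, at -1.93, 0.02 and -0.05 in KA and -1.92, -2.87 and -3.11 in PBS. Prox1 held 11.7, 12.9 and 9.94 FPKM in KA IP and 5.62, 2.56 and 5.26 FPKM in PBS IP. Among CA pyramidal cell markers 10 of 14 were tested, Bok was higher at 1.7, and Spink8 at -1.49 and Neurod6 at -1.1 were lower. Neurod6 fell in both fractions, from 83.5 to 102 FPKM in PBS input to 31.7 to 45.1 FPKM in KA input, and from 13.4 to 27.8 FPKM in PBS IP to 3.8 to 3.84 FPKM in KA IP. As single homogenates were left out the CA markers lower numbered 0 to 2, with 0 without KA replicate 1 or 3 or PBS replicate 3 and 1 without KA replicate 2 or PBS replicate 1. Those higher numbered 1 to 3, with 3 without KA replicate 3 or PBS replicate 1 or 2 and 2 without KA replicate 2 or with the replicate block.

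Interneuron markers moved apart from each other. Of 9 tested, Pvalb (2.56), Cck (3.03) and Crhbp (2.54) were higher, and Sst (-3.06) and Calb2 (-1.8) were lower. Pvalb, the calcium buffer parvalbumin, held 58.8, 28.8 and 30.8 FPKM in KA IP against 9.95, 8.41 and 12.6 FPKM in PBS IP. Its KA ratios of IP to input, -0.83 to 0.17, lay above the PBS ratios of -3.18 to -2.51. With the homogenate as a replicate block 5 interneuron markers were higher in place of 3.

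Immediate early genes, which neurons and glia transcribe within minutes of activity, were higher in part. Of 15 tested, 5 were higher and 10 not called, with a median of 0.68, against 4.83% higher and a median of -0.09 over all genes. Egr1 held 16.1, 17.2 and 22.3 FPKM in KA IP and 2.67, 1.62 and 5.74 FPKM in PBS IP, while its inputs overlapped at 20.6 to 22.9 and 14.6 to 25.6 FPKM. Its log2 difference was 2.39 (SE 0.395, adjusted p = 0.00115, edgeR). Egr4 was at 2.06, Junb at 1.94, Nr4a1 at 1.46 and Nr4a3 at 1.4. Fos, the best known of them, was not called at 0.66, and Egr3 stood at 0.24 and Dusp1 at -0.03.

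Oligodendrocyte genes had the largest share of higher genes among the lists counted here. All 15 markers were tested, 13 were higher, and the median log2 difference was 2.01, with a median KA effect of 2.06 in IP and 0.18 in input. Their summed level was 1809 to 3466 FPKM in KA IP, above the KA inputs at 921 to 1172 FPKM. In PBS the IP held 332 to 727 FPKM and the input 671 to 851 FPKM. Mbp, which encodes myelin basic protein, held 772, 494 and 581 FPKM in KA IP and 144, 131 and 219 FPKM in PBS IP, with a log2 difference of 1.98 (SE 0.377, adjusted p = 0.00244, edgeR). Cldn11, the claudin of myelin, was at 2.37 (SE 0.468), and Gjb1, an oligodendrocyte connexin, at 2.37 (SE 0.45).

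The control homogenates differed among themselves in these genes. The median log2 ratio of the 15 markers was -0.81, -1.31 and 0.22 in the 3 PBS homogenates, 0.79 to 1.58 in the KA ones, and -1.46, -0.99 and 0.41 in the AAV-only ones, so 1 homogenate of each control group lay closer to the KA range than the others. Between 12 and 14 of the 15 were higher when single homogenates were left out. Fa2h (0.93) and Aspa (0.43) were not called.

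Trf had the largest value of this list, and Apod is not a member of it. Trf encodes transferrin, which the brain makes mostly in oligodendrocytes, and it held 579, 364 and 327 FPKM in KA IP against 28.3, 19.7 and 62.7 FPKM in PBS IP, for a log2 difference of 2.66 (SE 0.413). Apod, a lipid-carrying lipocalin (chr16:31296192-31314808, minus strand), held 1239, 856 and 440 FPKM in KA IP and 15, 10.4 and 44.5 FPKM in PBS IP. Its KA inputs held 123 to 189 FPKM and its PBS inputs 49.6 to 53.9 FPKM, and the log2 difference was 3.65 (SE 0.553, adjusted p = 0.00063, edgeR). With the AAV-only group as the baseline, which shares the KA libraries, Apod was at 1.69 and Trf at 1.47 and neither was called (adjusted p = 0.45 and 0.492, edgeR). Apod held 12.4, 16.4 and 268 FPKM in AAV-only IP.

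**Figure D3:**
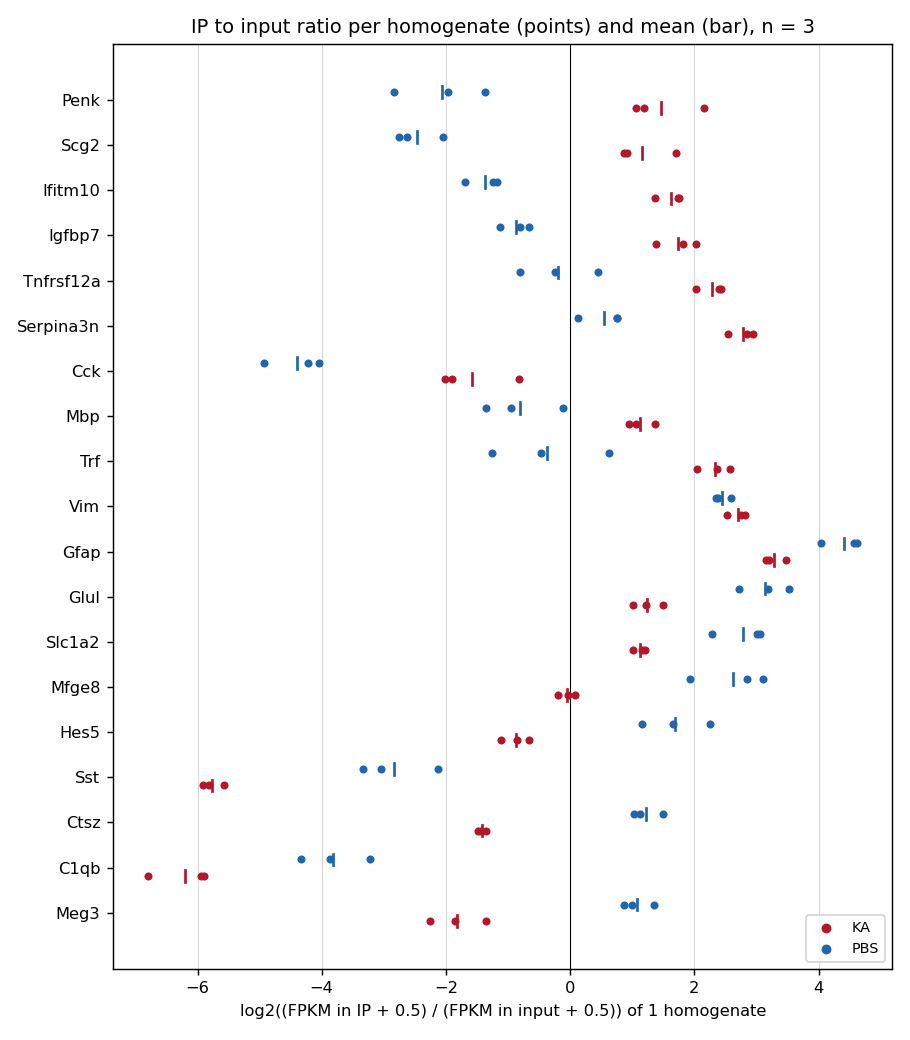
Log2 ratio of IP to input FPKM (x axis, with 0.5 added to both) for 19 genes in each KA and PBS homogenate (points), with the mean of 3 as a bar. From Penk to Trf the KA points lie to the right of the PBS points, from Gfap to Meg3 to the left, and for Vim they overlap, at 2.52 to 2.82 in KA and 2.35 to 2.59 in PBS.

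Some secreted and reactive genes rose more in the astrocyte IP than in the tissue. Igfbp7, an IGF-binding protein (chr5:77349240-77408041, minus strand), held 117, 107 and 61 FPKM in KA IP and 3.25, 4.42 and 4.41 FPKM in PBS IP. Its inputs rose less, from 7.3 to 8.13 FPKM in PBS to 23.2 to 30.1 FPKM in KA, and the log2 difference was 2.76 (SE 0.285, adjusted p = 5.74e-05, edgeR). PBS IP lay under PBS input and KA IP over KA input, without overlap. Polr2b lies opposite to Igfbp7, and since the counting strand is not given in the sources used here their reads may mix.

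Serpina3n, a secreted serine protease inhibitor of reactive astrocytes (chr12:104406729-104414329, plus strand), held 725, 511 and 521 FPKM in KA IP against 11.7, 9.37 and 14.2 FPKM in PBS IP. Inputs were 70.5 to 93.3 FPKM and 6.7 to 8.6 FPKM. It was higher by 2.24 (SE 0.26, adjusted p = 9.92e-05, edgeR), with 1.35 (adjusted p = 0.343) on the AAV-only baseline. Tnfrsf12a, the receptor of the cytokine TWEAK, went from 1.22 to 1.94 FPKM in PBS IP to 71.4 to 81 FPKM in KA IP, and was higher by 2.61 (SE 0.293). Serping1, the inhibitor of complement C1, was higher by 1.59 (SE 0.313), but at -0.16 on the AAV-only baseline (adjusted p = 0.955, edgeR). The lowest p of the comparison belonged to Ifitm10 at 3.35 (SE 0.215, adjusted p = 1.55e-06, edgeR), whose ratios were 1.37 to 1.76 in KA and -1.69 to -1.17 in PBS.

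Of the IGF system 9 of 13 genes were tested and 3 were higher: Igfbp7, Irs2, an adaptor of the insulin and IGF receptors, at 1.29 (SE 0.215), and Igfbp2. The share higher over all genes was 4.83%. Igfbp2 (chr1:72824503-72852474, plus strand) held 1167, 903 and 702 FPKM in KA IP, 196, 149 and 106 FPKM in KA input, 50.1, 56.7 and 44 FPKM in PBS IP and 11.7, 20.7 and 21.3 FPKM in PBS input. It was above input in all 6 homogenates and rose strongly in both fractions, by 4.15 in IP and 3.04 in input. The difference between these, 1.11 (SE 0.361, adjusted p = 0.0359, edgeR), just passed the rule. It lost the call without KA replicate 1 (adjusted p = 0.053), KA replicate 2 (0.099) or PBS replicate 3 (0.129).

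Pan-reactive astrocyte genes rose in both fractions, and for most the difference between the fractions was not called. Of 13 listed 7 were tested, and all 7 rose in IP and in input, with medians of 4.12 and 3.65. Their median log2 difference was 0.08, and of the 7 only Serpina3n was called. Vim, which encodes the intermediate filament vimentin, rose by 4.12 in IP and 4.03 in input, a difference of 0.09 (SE 0.341). Cd44, the hyaluronan receptor, was at 0.08 (SE 0.239) and Timp1, a metalloprotease inhibitor, at 0.66 (SE 0.495). Gfap held 3377, 3624 and 4051 FPKM in KA IP and 958, 1225 and 655 FPKM in PBS IP, with inputs of 363 to 390 and 39.5 to 49.4 FPKM. Its log2 difference was -1.18 (SE 0.452, adjusted p = 0.0687, edgeR) and its ratios did not overlap, and with the homogenate as a replicate block it was called lower at -1.11 (adjusted p = 0.0305). A test that misses the threshold does not show equal effects.

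The rule on FPKM removed some reactive genes that PBS IP hardly held. Hspb1, a small heat shock protein, stood at 443, 440 and 273 FPKM in KA IP and 0.182, 1.19 and 2.12 FPKM in PBS IP, and so was not tested. Hpgd, which breaks down prostaglandins, stood at 68.9, 73.3 and 44.6 FPKM in KA IP and 1.37, 0.936 and 2.6 FPKM in PBS IP. Cytosolic chaperones that did pass included 4 higher of 17, among them Hsp90ab1 at 1.51 and Hspa8 at 1.21, against 4.83% higher over all genes.

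Genes of resting astrocytes lost in the IP relative to input. All 25 homeostatic markers were tested, and all 25 had a negative log2 difference. Of these 19 were lower and 6 were not called, with a median of -1.33 against -0.09 over all genes and a background of 9.22% lower. The median KA effect of the 25 was -0.77 in IP and 0.44 in input, so the sign turned between fractions. Leaving out single homogenates gave 14 to 19 lower.

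Transporters and enzymes of the glutamate cycle showed the size of it. Glul encodes glutamine synthetase, which turns glutamate into glutamine in astrocytes, and it held 203, 185 and 193 FPKM in KA IP against 776, 1188 and 627 FPKM in PBS IP. Its inputs were close, at 71.9 to 95.8 FPKM in KA and 84.8 to 103 FPKM in PBS, and the log2 difference was -1.99 (SE 0.401, adjusted p = 0.00334, edgeR). Slc1a2, the glutamate transporter GLT-1, held 448, 507 and 486 FPKM in KA IP and 1699, 1691 and 1067 FPKM in PBS IP, with inputs between 205 and 223 FPKM throughout. It was lower by the rule at -1.7 (SE 0.441, adjusted p = 0.0129, edgeR), but not without KA replicate 1 (0.0788) or 2 (0.0702). Slc1a3, the transporter GLAST, was at -1.72 (SE 0.334), and Slc6a11, the astrocytic GABA transporter GAT-3, at -1.66 (SE 0.218).

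Of the 16 tested genes of glutamate and GABA handling 8 were lower and 2 higher. The 2 higher ones were Got1 (1.73, SE 0.192) and Got2 (1.35), the aspartate aminotransferases. Got1 rose from 11.4 to 16 FPKM in PBS IP to 44.8 to 45.6 FPKM in KA IP, and its inputs overlapped. Gja1, the astrocyte gap junction protein connexin 43, held 32.3, 31.6 and 23.2 FPKM in KA IP and 71, 68.3 and 51.6 FPKM in PBS IP, for a log2 difference of -1.61 (SE 0.278). Among 18 tested genes of potassium and water handling at endfeet 7 were lower (4 without KA replicate 2 and 3 without PBS replicate 2), but Kcnj10, the potassium channel Kir4.1, was at -0.29 (SE 0.258) and Aqp4, the water channel, at -0.86 (SE 0.335), neither called.

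Mfge8 had the lowest value of the 25 markers. Mfge8, a secreted bridge between dying cells and phagocytes (chr7:79133768-79149060, minus strand), held 14.2, 18 and 16.8 FPKM in KA IP against 155, 189 and 107 FPKM in PBS IP. Its inputs were 13.5 to 19.3 FPKM and 17.5 to 27.6 FPKM, so after KA the log2 ratio of IP to input was -0.2 to 0.08, against 1.93 to 3.11 in PBS. The log2 difference was -2.77 (SE 0.377, adjusted p = 0.000304, edgeR). Hes5, a transcription factor switched on by Notch (chr4:154960923-154962371, plus strand), held 3.29, 2.04 and 2.08 FPKM in KA IP and 28.7, 29.5 and 20.5 FPKM in PBS IP, a log2 difference of -2.73 (SE 0.356). Of 8 tested Notch genes 2 were lower, Hes5 and Lfng (-1.18), and of 14 tested BMP and TGF-beta genes 4 were lower, among them Id4 (-1.85, SE 0.358) and Bmpr1b (-1.28). The Notch count was 1 without KA replicate 1 or 2 or PBS replicate 1, and the BMP and TGF-beta count was 2 without KA replicate 1 or PBS replicate 2. Over all genes 9.22% were lower, and 1 of 8 or 2 of 14 lies near that share.

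Astrocytes supply neurons with cholesterol and serine, and both pathways held lower genes and no higher ones. Of 26 tested genes of cholesterol and fatty acid synthesis 11 were lower, with a median of -0.92, and 6 were lower without PBS replicate 2. Msmo1, a sterol oxidase, held 10.9, 10.8 and 11.6 FPKM in KA IP and 30.8, 36.1 and 28.9 FPKM in PBS IP, with inputs of 8.62 to 11.6 FPKM and 8.68 to 11.4 FPKM, and was at -1.46 (SE 0.24). Fads1 (-1.62) and Idi1 (-1.48) were also lower, while Srebf2, the regulator of sterol genes, stood at -0.04 and was not called. Of 13 tested genes of serine, glycine and folate metabolism 6 were lower, with a median of -0.98, and 3 without PBS replicate 2. Of 20 astrocyte transcription factor genes 7 were lower, against 9.22% lower over all genes.

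A further 3 lower genes with small p values were in none of the lists. Nnat encodes neuronatin, an imprinted membrane proteolipid (chr2:157560078-157562522, plus strand), and held 98.7, 84.9 and 92.6 FPKM in KA IP and 512, 449 and 567 FPKM in PBS IP. Its log2 difference was -2.98 (SE 0.248, adjusted p = 2.7e-05, edgeR). Blcap lies on the opposite strand over Nnat. Ppp1r1b, the phosphatase inhibitor DARPP-32, was at -2.64 (SE 0.255), and Dhrs3, a retinal reductase, at -2.61 (SE 0.244).

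Microglial genes rose strongly in the input and less in the IP, which put them among the lower genes. Of 18 microglia markers 12 passed the FPKM rule in IP and 10 of those were lower, with a median of -1.87. The median KA effect of the 12 was 2.9 in input and 1.02 in IP, and all 12 rose in input while 8 rose in IP. The 18 summed to 2879 to 4003 FPKM in KA input and 293 to 343 FPKM in PBS input, against 75.3 to 136 FPKM in KA IP and 34.3 to 65.8 FPKM in PBS IP. C1qb, a chain of complement C1q made by microglia, held 1063, 886 and 724 FPKM in KA input and 16.7, 14.5 and 6.04 FPKM in KA IP. In PBS it held 59.5, 71.3 and 69.9 FPKM in input and 3.61, 3.06 and 7 FPKM in IP. The log2 difference was -2.24 (SE 0.391, adjusted p = 0.0015, edgeR). On the AAV-only baseline C1qb was at -1.78 and not called (adjusted p = 0.0924, edgeR). P2ry12, the ADP receptor of microglia, was at -1.8 (SE 0.265).

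Of 22 tested lysosome genes 10 were lower and 12 not called, with a median of -1.06 and KA effects of 1.44 in input and 0.3 in IP. Ctsz, the protease cathepsin Z (chr2:174427493-174439039, minus strand, with Nelfcd on the opposite strand), held 282, 218 and 236 FPKM in KA input and 27.2, 32.5 and 31.2 FPKM in PBS input. Its IP libraries differed little, at 83.6 to 104 FPKM in KA and 64.4 to 78.1 FPKM in PBS, and the log2 difference was -2.66 (SE 0.233, adjusted p = 3.47e-05, edgeR). Grn, which encodes progranulin, was at -1.69 (SE 0.218). Outside the list, Ifi30, a lysosomal thiol reductase, was at -2.95 (SE 0.324) and Ptgs1, the prostaglandin synthase COX-1, at -2.47 (SE 0.222). Man2b1, a lysosomal mannosidase, was the 1 gene called in opposite directions, at -1.02 in IP and 1.11 in input, for a log2 difference of -2.12 (SE 0.357).

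Most antigen presentation genes rose in both fractions, and some of them more in input. Of 16 tested interferon and MHC class I genes 14 rose in IP and 14 in input, while 6 were lower and 10 not called on the difference, with medians of 1.8 in IP, 2.98 in input and -0.7 for the difference. H2-K1, an MHC class I heavy chain, held 99.7, 96.7 and 72.3 FPKM in KA IP and 31.3, 30.5 and 40.7 FPKM in PBS IP, with inputs of 58.6 to 87.8 FPKM and 5.39 to 7.46 FPKM. Its log2 difference was -2.06 (SE 0.214, adjusted p = 5.74e-05, edgeR), and B2m, the light chain, was at -1.62 (SE 0.271). On the AAV-only baseline B2m was at -3.04 and not called (adjusted p = 0.199, edgeR), with 183, 153 and 2910 FPKM in AAV-only IP. The count of 6 was 3 without KA replicate 1 and 4 without PBS replicate 2 or 3. Of the 6 tested complement genes, Serping1 and Cd59a (1.15), both inhibitors, were higher (1 gene without KA replicate 1 or 2 or PBS replicate 1 or 2), while C1qa (-1.94), C1qb, C1qc (-2.19) and C4b (-1.47) were lower. C4b rose in both, from 16.1 to 16.3 FPKM in PBS IP to 43.3 to 79.8 FPKM in KA IP, and from 1.22 to 1.65 FPKM in PBS input to 11.5 to 17.6 FPKM in KA input.

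**Figure D4:**
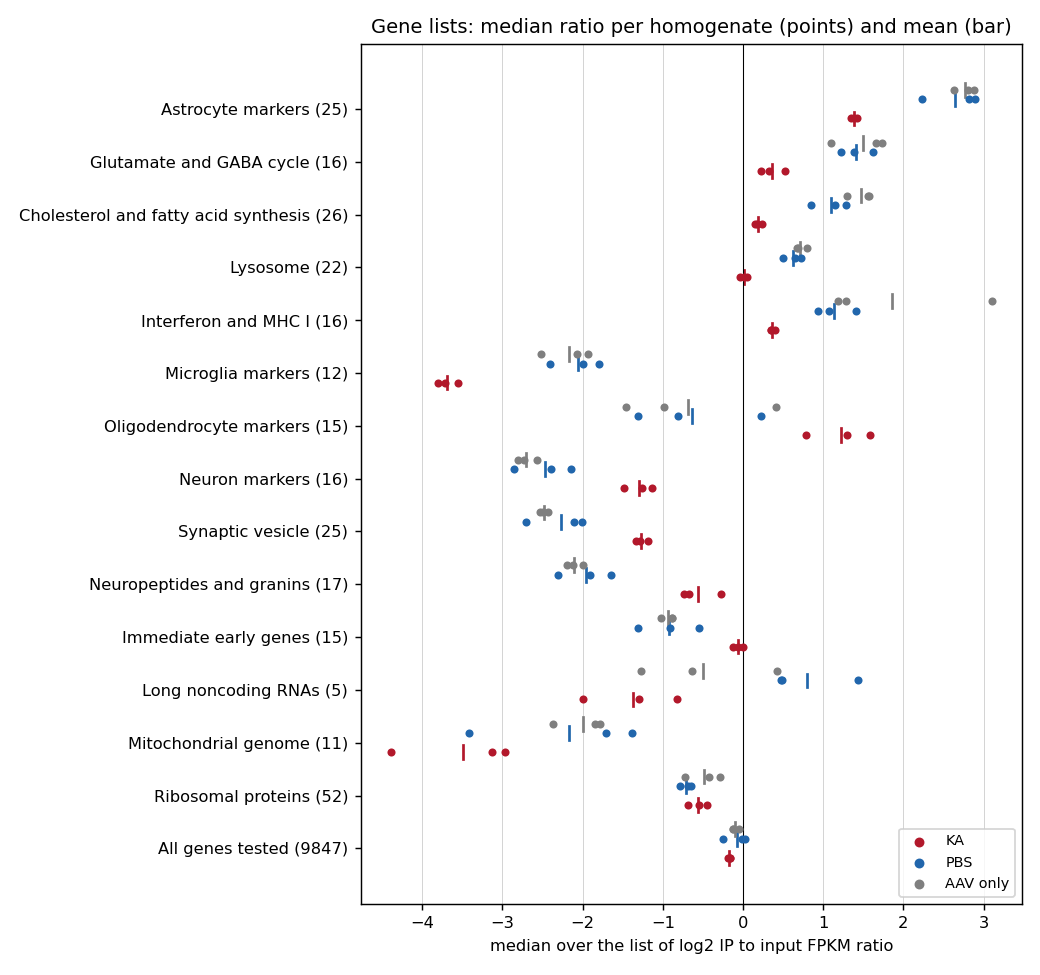
Median over each gene list (number of tested genes in brackets) of the log2 ratio of IP to input FPKM (x axis) in each KA, PBS and AAV-only homogenate (points), with the mean of 3 as a bar. Astrocyte markers stand at 1.35 to 1.42 in KA and 2.23 to 2.89 in PBS, neuron markers at -1.48 to -1.14 and -2.85 to -2.14, and oligodendrocyte markers at 0.79 to 1.58 and -1.31 to 0.22.

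Lists of metabolism, matrix and signalling held calls in both directions. Of 27 tested genes of glycogen, glucose and lactate metabolism 8 were lower and 2 higher, with a median of -0.13. The lower ones included the glycogen-targeting phosphatase subunit Ppp1r3g (-2.39, SE 0.421) and the brain glycogen phosphorylase Pygb (-1.2, SE 0.235). The higher ones were Eno2, the neuronal enolase (1.23, SE 0.219), and Slc16a1, the monocarboxylate transporter MCT1 (1.05, SE 0.218). Without PBS replicate 2 these counts were 5 lower and 4 higher, and without PBS replicate 3 the higher count was 1.

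Of 17 tested matrix and adhesion genes 6 were lower and 1 higher, against 9.22% lower and 4.83% higher over all genes. Itgb5, the beta 5 integrin subunit, was at -2.4 (SE 0.267), Bcan, the proteoglycan brevican, at -2.07 (SE 0.325) and Sparcl1, the synaptogenic protein hevin, at -1.99 (SE 0.354), while Chl1, a neural adhesion molecule, was at 1.53 (SE 0.286). The engulfment receptors Mertk (-2.32, SE 0.295) and Axl (-1.43, SE 0.255) were lower, and the glypican Gpc4 was higher (1.55, SE 0.217). Among 20 tested receptors and calcium signalling genes 6 were lower, among them the endothelin receptor Ednrb (-1.12, SE 0.207), and the adenosine receptor Adora1 (1.04, SE 0.206) was higher, a call that was lost without KA replicate 2 or PBS replicate 2 and with upper quartile factors.

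Of 21 tested neuronal potassium channel genes 5 were higher and 2 lower, with a median of 0.58. Kcnd2, a channel of the A-type current, was at 1.67 (SE 0.276) and Kcna1, an axonal channel, at 1.64 (SE 0.3), while Kcnn2, a calcium-activated channel, was at -1.36 (SE 0.251). The lower count was 1 without any single homogenate other than KA replicate 3, and also with the replicate block, RLE factors, library totals, DESeq2 or limma-voom. Of 12 tested genes of neurogenesis and immature neurons 5 were higher, among them Stmn1 (2.03, SE 0.278) and Neurod1 (1.51, SE 0.313), and 3 were lower, among them Hopx (-2.06) and Calb2. The higher count was 3 without KA replicate 2. Of 23 tested glutamate receptor genes 1 was higher and 2 lower (1 with the replicate block), a share close to the background.

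Genes annotated as long noncoding, unclassified or small RNA were lower more often than protein-coding genes. Of 350 tested long noncoding RNAs and unclassified transcripts 87 were lower (24.9%) and 3 higher, with a median of -0.84, and of 48 small RNAs 8 were lower (16.7%), against 8.59% lower of 9064 protein-coding genes. The classes follow the annotated type. So the first holds Ifi30, annotated as a processed transcript although it encodes an enzyme. Meg3, an imprinted and largely nuclear long noncoding RNA (chr12:109541001-109571726, plus strand), held 9.99, 13.6 and 21.4 FPKM in KA IP and 82.8, 122 and 189 FPKM in PBS IP. Its inputs were 49.6 to 55.7 FPKM and 41.1 to 73.8 FPKM, and the log2 difference was -2.85 (SE 0.463, adjusted p = 0.00103, edgeR). Snhg11, a host gene of small nucleolar RNAs, was at -3.21 (SE 0.53) and Snhg20 at -3.05 (SE 0.5). Snhg11 is annotated as protein-coding and was counted in that class. Among protein-coding genes, Pabpn1, the nuclear poly(A)-binding protein, was at -3.11 (SE 0.46), and Wsb1, of the SOCS-box family, at -3.07 (SE 0.323).

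The baseline mattered here. On the AAV-only baseline, which shares the KA libraries, Meg3 was at -0.9 (adjusted p = 0.288), Snhg11 at -1.3 (0.195), Snhg20 at -1.78 (0.122), Pabpn1 at -1.2 (0.124) and Wsb1 at -1.18 (0.0482) in edgeR, of which Wsb1 alone passed the rule. The median log2 ratio of 5 tested genes listed as nuclear long noncoding RNAs, Snhg11 included, was 0.48 to 1.43 in PBS, -1.27 to 0.42 in AAV-only and -2 to -0.82 in KA homogenates. By contrast, the astrocyte markers had a median of -1.36 on the AAV-only baseline against -1.33 here, the microglia markers -1.6 against -1.87, and the neuron markers 1.3 against 1.18. Other lists moved more. The pan-reactive genes had a median of -0.86 on the AAV-only baseline against 0.08 here, and the interferon and MHC class I genes -1.56 against -0.7. In both lists AAV-only replicate 3 stood apart. The median ratio of the interferon and MHC class I genes was 1.18, 1.29 and 3.11 in AAV-only replicates 1 to 3, against 0.93 to 1.41 in PBS. For the pan-reactive genes it was 1.84, 2.02 and 2.86, against 1.26 to 1.69 in PBS. Among the 12 libraries run 3 held the PBS group only, so its part in these values cannot be told apart from that of the group.

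Transcripts of the mitochondrial genome leaned the same way with less certainty. All 11 tested had a negative log2 difference, with a median of -1.46, but 2 were lower. mt-Nd5, a subunit of complex I, held 402, 432 and 232 FPKM in KA IP and 2408, 390 and 1635 FPKM in PBS IP, so PBS replicate 2 lay within the KA range. Its log2 difference was -2.05 (SE 0.63, adjusted p = 0.0284, edgeR). The count of 2 became 0 without any of KA replicates 1, 2 and 3 or PBS replicates 1 and 3, 4 without PBS replicate 2, 5 with the homogenate as a replicate block, 5 by DESeq2 and 0 by limma-voom. CT010467.2, with the lowest value of all at -4.28 (SE 1.23, adjusted p = 0.021, edgeR), rested on PBS IP values of 20, 517 and 90.3 FPKM. It lost the call without KA replicate 1 (adjusted p = 0.0507), 2 (0.0606) or 3 (0.0701), and by limma-voom (-3.27, adjusted p = 0.135). Pomc, the precursor of several pituitary peptides, at -3.14 (SE 0.813, adjusted p = 0.0127, edgeR), had KA inputs of 15.2, 31.8 and 3.79 FPKM. Pomc lost the call without PBS replicate 2 (0.0895) or 3 (0.0602), and by limma-voom (-2.68, adjusted p = 0.0891).

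Ribosomal protein genes, which every cell translates, differed little. Of 52 tested, 0 were called by edgeR, DESeq2 or limma-voom, and at an unadjusted p under 0.05 in edgeR 4 were higher and 1 lower. Their median log2 difference was 0.15, and 1 was higher with no FPKM filter. Of 36 nuclear genes of the respiratory chain 1 was higher (Atp5g1), with a median of 0.17, and 0 without KA replicate 1 or 2 or any PBS replicate. The 5 tested choroid plexus and ependymal genes had 0 calls in edgeR, also 0 in DESeq2 and limma-voom and 0 at an unadjusted p under 0.05, although the 11 listed summed to 2525 to 4519 FPKM in KA input and 45.9 to 313 FPKM in PBS input. With no FPKM filter 3 were lower, and 1 was lower without PBS replicate 1 or with the replicate block.

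Endothelial and mural cell genes were mostly below the FPKM rule, with 5 of 16 tested and 3 of these lower (1 without PBS replicate 3, and 1 higher with the replicate block), and of 5 tested markers of oligodendrocyte precursors Cspg5 alone was lower, at -1.91 (SE 0.312). The median gene length was 3311 bases for the 476 higher genes, 4123 for the 908 lower genes and 4176 for those not called, given as a description.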

How the data were processed

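RNA-seq was performed on GFP immunoprecipitates (IP) and inputs of pooled hippocampi, 3 homogenates per group. The authors deposited raw read counts per gene, made with STAR and featureCounts per the submitters' processing notes on the mouse genome (mm10), and FPKM values that the authors computed per sample. Versions, annotation and counting strand are not given in the sources used here. Genes with FPKM above 1 in all 6 IP libraries were fitted with edgeR 4.0.16 (R 4.3.3): TMM factors, glmQLFit and glmQLFTest on 4 group means, with the interaction as contrast and Benjamini-Hochberg adjustment over 9847 genes. SE is the absolute log2 difference over the root of F. Ratios per homogenate are log2((FPKM IP + 0.5)/(FPKM input + 0.5)). IP and input of 1 number and group share a homogenate, and their residuals correlated at 0.131 to 0.629 in the 6 pairs. KA and PBS numbers share nothing. Locations are from GENCODE vM21 (GRCm38) and promoters from RefSeq.

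The comparison and the gene lists were chosen with earlier results of these data known. Named genes are the 12 largest called differences in each direction (ratios not overlapping, mean FPKM of 10 or more in a group), the 5 smallest p in each direction, up to 4 called members with the smallest p of each list, all members of the cell type lists and the reactive genes the study names, and the called gene of opposite effects. Other list members named beside a count were chosen after their values were seen. Replicates are separate homogenates. Totals of 9534606 to 16032180 counts gave every called gene reads in all 12 libraries. The fit was also run on simulated counts, drawn for each library on its own. These leave out the shared homogenate of IP and input, so they do not test a fit without that pairing. Some genes are not reported here. Alternatives tried were other scalings, filters, DESeq2 1.42.0, limma 3.58.1 (voom), a homogenate block and leaving out each homogenate.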

Additional observations from a re-analysis of the deposited data

Results flagged for a closer look

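The effect of KA differed between IP and input for 1384 genes by the test of the interaction itself. Man2b1 is the gene called with opposite effects, lower in IP (-1.02) and higher in input (1.11), with a log2 difference of -2.12 (adjusted p = 0.00123, edgeR's quasi-likelihood test). Its IP held 1.66, 1.78 and 1.78 FPKM in KA and 1.87, 3.76 and 5.02 FPKM in PBS, and its input 4.65, 4.45 and 3.14 FPKM in KA and 1.49, 2.04 and 1.98 FPKM in PBS. On the AAV-only baseline it stood at -1.09 (adjusted p = 0.123, edgeR).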

How the results depend on the processing

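The 1384 called genes became 2460 with no limit on the fold and 2405 with no FPKM filter (17509 genes tested), of which 1004 were higher and 1401 lower. With the homogenate as a replicate block 1490 were called, 1353 of them shared. Among the genes named above it changed the calls of Gfap and Npy. It also moved list counts, of which only some are given above. Among the others, lower lysosome genes numbered 13 in place of 10, microglia markers 12 in place of 10 and astrocyte markers 20 in place of 19. Higher dentate granule markers numbered 4 in place of 3, and granin and neuropeptide genes 11 in place of 10. Higher immediate early genes numbered 6 in place of 5, and synaptic vesicle genes 13 in place of 12. DESeq2 called 1397, limma-voom 1287, robust dispersion 1389, RLE factors 1329, upper quartile factors 1462, library totals 1211 and FPKM above 1 in all 12 libraries 1289. Leaving out 1 homogenate gave 1078 to 1359 called, 432 to 532 higher and 607 to 827 lower, with the fewest lower without KA replicate 1. Of 188 named called genes 148 kept the call in each of the 15 settings that tested them, 40 lost it in at least 1, and 0 reversed. Serping1 and Flna, counted as kept, were not tested with FPKM above 1 in all 12 libraries. Another pseudocount changed the count of genes without overlap by less than 1.5 times. Having 3 homogenates a group and the separate run of PBS limit these calls, and genes that PBS IP hardly held were not tested.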
